A study of Mus musculus with 3 samples.

Results

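The circadian clock genes described here are 10 transcripts, chosen by name from the 32285 genes counted in mouse back skin: Dbp, Tef, Hlf, Nr1d1, Nr1d2, Per1, Per2, Per3, Ciart and Arntl. They were chosen with earlier results of these data known. All 10 were found by symbol, each in a single row, and their levels were read in every skin cell type of 3 single-cell RNA-seq libraries made with the 10x Genomics 3′ chemistry. The 2-week knockout library was K5-Cre-er/Piezo1fl/fl/Tdfl/+, taken at postnatal day 62. The 3-week knockout library, K5-Cre-er/Piezo1fl/fl/Tdfl/fl, was taken at postnatal day 71. The control library was K5-Cre-er/Piezo1fl/+/Tdfl/+ at postnatal day 62, so it carried 1 floxed Piezo1 allele and the same Cre driver. All 3 groups were C57BL/6 and received tamoxifen from postnatal day 48 to day 52, and a control of day 71 was not analysed here. K5-Cre-er is an inducible recombinase driven by the keratin 5 promoter, which is active in basal epithelial cells and not in the dermis, and the labels call the deletion epithelial specific. Neither the number of mice behind a library nor the hour of day at which skin was collected is given in the sources used here. Genotype and hour of collection therefore cannot be told apart in any comparison below.

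The circadian clock is a feedback loop of transcription that runs in nearly every cell of the skin and is set daily by the central clock in the brain. The activator BMAL1, encoded by Arntl, pairs with CLOCK and binds E-boxes in the genes of the period proteins, the REV-ERB receptors, Ciart and the PAR bZIP factors. Period proteins and CIART then repress the BMAL1 complex, and the REV-ERB receptors repress Arntl itself, so Arntl and the E-box genes peak at nearly opposite hours. Epidermal and hair follicle cells are known to run such clocks, and clock activity is known to vary among bulge stem cells.

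The members' reference promoters were searched for the letters that these factors bind. Stretches that hold a match are shown to give the E-box, D-box and ROR element letters as they stand around the starts of these genes. RefSeq windows from 250 bases before to 50 bases after the annotated start (build GRCm38.p6) were held for 9 of the 10 members, in 12 windows, with none for Per2. Both strands were searched for CACGTG (E-box, bound by BMAL1 with CLOCK), TTANGTAA (D-box, bound by DBP, TEF and HLF), GTAGGTCA (a long ROR element) and AGGTCA (its core, which the long form contains). Capitals mark the matches.
Ciart, chr3:95882252-95882478, minus strand, with 3 E-boxes: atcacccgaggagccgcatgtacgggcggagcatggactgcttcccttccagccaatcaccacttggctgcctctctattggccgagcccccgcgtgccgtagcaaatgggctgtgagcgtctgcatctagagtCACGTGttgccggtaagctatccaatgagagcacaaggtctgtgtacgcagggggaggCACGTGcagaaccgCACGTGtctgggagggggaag
Per3, chr4:151044666-151044915, minus strand, with 2 D-boxes: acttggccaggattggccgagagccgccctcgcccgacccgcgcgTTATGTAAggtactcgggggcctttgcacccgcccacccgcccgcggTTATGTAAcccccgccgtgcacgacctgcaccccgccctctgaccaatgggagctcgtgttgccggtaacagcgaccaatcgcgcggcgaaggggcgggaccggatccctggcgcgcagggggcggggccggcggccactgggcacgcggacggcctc
Per1, chr11:69098699-69098947, plus strand, with 1 E-box and 1 AGGTCA read on the other strand: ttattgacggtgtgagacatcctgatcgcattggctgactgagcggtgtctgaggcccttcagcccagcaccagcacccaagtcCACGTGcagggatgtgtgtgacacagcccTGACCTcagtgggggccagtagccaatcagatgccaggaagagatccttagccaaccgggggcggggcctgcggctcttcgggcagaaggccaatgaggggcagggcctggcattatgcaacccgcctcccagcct
Tef, chr15:81811164-81811413, plus strand, with 1 E-box: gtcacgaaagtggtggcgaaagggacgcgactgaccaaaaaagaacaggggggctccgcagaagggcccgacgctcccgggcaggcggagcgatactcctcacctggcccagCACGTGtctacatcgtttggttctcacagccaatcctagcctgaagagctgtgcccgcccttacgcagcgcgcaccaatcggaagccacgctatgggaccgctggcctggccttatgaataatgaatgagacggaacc
Arntl, chr7:113207529-113207558, plus strand, inside an exon, with 1 long ROR element: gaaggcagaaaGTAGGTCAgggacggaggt
The Ciart E-boxes lay 116, 58 and 44 bases before the start, and the Per3 D-boxes 205 and 158 bases before it. The long ROR element of Arntl began at base 30 after the start. Another Tef window also held 1 E-box, 127 bases before its start, and the Nr1d2 window held 1 AGGTCA. The windows of Dbp, Hlf and Nr1d1 held none of these letters. Of 32851 mouse windows of the same length, 7.15% held CACGTG, 2.32% TTANGTAA, 0.621% GTAGGTCA and 16.3% AGGTCA. A match is a description of the letters and not a bound site.

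Piezo1, the deleted gene, was counted at 27.7 CPM (UMIs scaled to 1e6 per class and library) in epithelial cells of the 2-week knockout and 15.1 CPM in the 3-week knockout, against 34.7 CPM in the control. Its level was also lower in dermal cells, at 55.6 CPM and 43.9 CPM in the 2-week and 3-week knockouts against 75.1 CPM in the control. Counting reads at the end of a transcript need not lose a deleted exon, so these levels check the labels only in part. After filtering, 9585 cells of the 2-week knockout, 9599 of the 3-week knockout and 4912 of the control were kept, with median depths of 7506, 8768 and 9989 UMIs. Ribosomal protein genes with symbols of Rps or Rpl directly before a number took 21.9% and 22.4% of UMIs in the 2-week and 3-week knockouts against 18.0% in the control. Mitochondrial genes took 2.81% and 3.55% against 3.62%. Xist was counted in all 3 libraries, and 2 UMIs of Y-linked genes were found over all of them. Pairs of libraries shared 17 to 29 cell barcodes. Epithelial cells, rich in keratin transcripts, made up 88.2% and 72.0% of cells in the 2-week and 3-week knockouts against 67.0% in the control. Clusters were named here from marker genes, and the thresholds for a name were set after the clusters were seen. Bulge-like names the hair follicle stem cell cluster group, and the dermal lineage is all vimentin-high cells without Ptprc, which includes melanocyte-like and Schwann-like cells. None of the 10 members was among the genes used for clustering. Each group had 1 library, so no difference was tested, no p-value is given, and the 95% intervals (exact Poisson for a level, exact conditional binomial for a ratio) cover counting error only. A gene is called higher or lower at a ratio of at least 1.5-fold with 50 or more UMIs over the 2 libraries. A class with few UMIs in 1 library can pass that minimum only through the other. Both knockouts are set against the same control library.

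Between 5 and 9 clock members were at least 1.5-fold higher in the knockout libraries than in the control in each lineage, dermal as well as epithelial, and Arntl was lower by that much in dermal cells. In epithelial cells 6 of 10 members were called higher in the 2-week knockout than in the control and 0 lower, where 12.0% and 6.94% of all genes counted were called higher and lower. The median log2 ratio of the members was 0.70, beside 0.04 over all genes. For the 3-week knockout against the control, 5 of 10 were higher and 0 lower in epithelial cells, over a background of 10.3% and 10.8%, with a median of 0.62 beside 0.01. Dermal cells gave 5 higher and 1 lower of 9 with enough UMIs at 2 weeks, over 11.5% and 9.74%, and a median of 0.89 beside 0.06. At 3 weeks all 10 passed the threshold in dermal cells, 9 higher and 1 lower, over 13.7% and 6.58%, and the median was 1.35 beside 0.13. The lower member in both dermal comparisons was Arntl. Because the members were chosen with earlier results of these data known, the shares of all genes stand beside their counts as a description only. With the clusters of a lineage weighed equally, 3 rather than 5 members were higher and 0 lower in dermal cells of the 2-week knockout. The share of all genes called with that weighting is not given here, so this count has no background beside it.

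**Figure D1:**
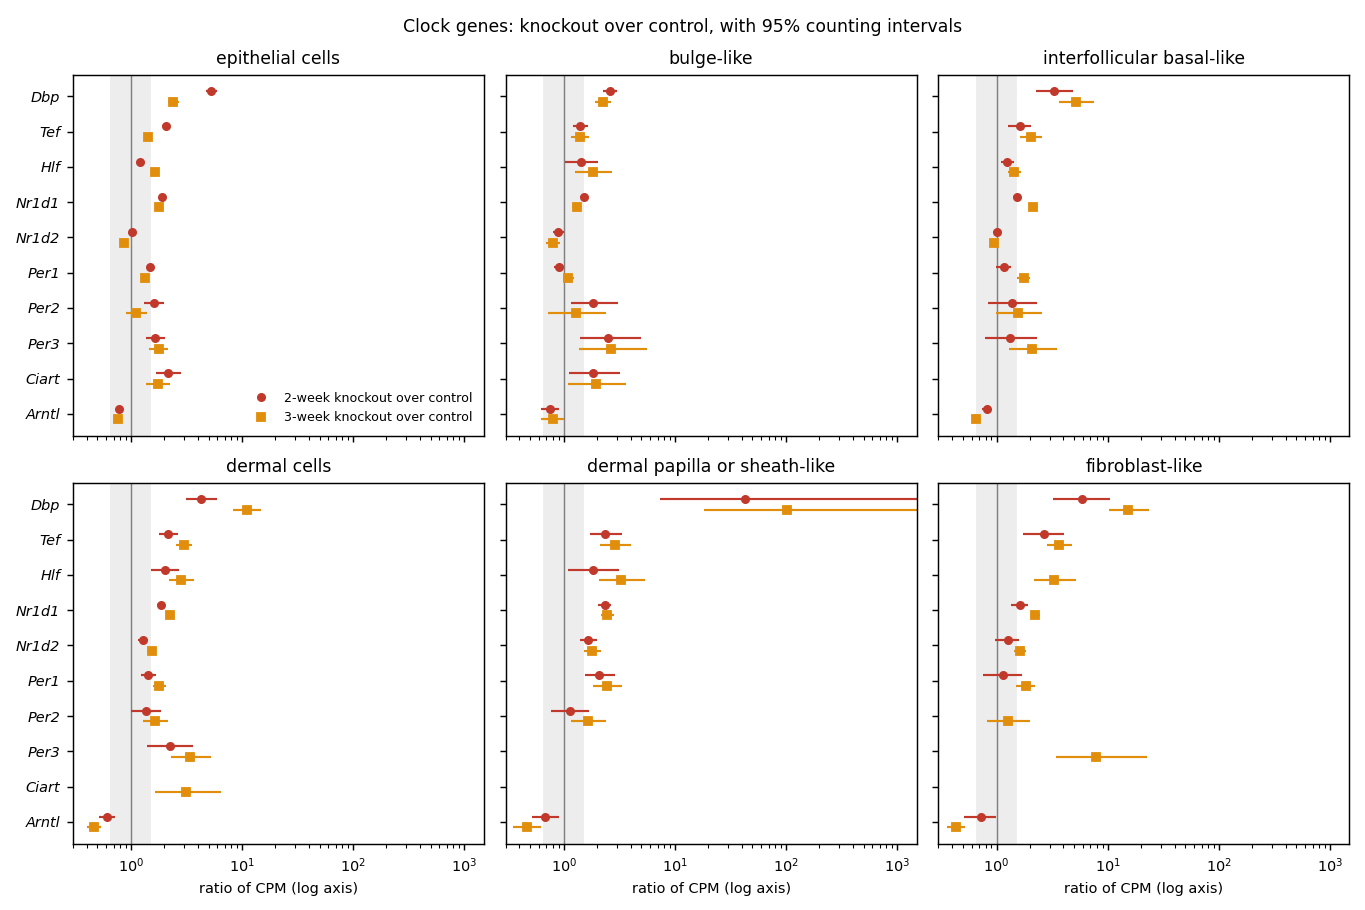
Ratio of each member's CPM between libraries in epithelial and dermal cells and in the main named classes, on a log axis, with exact 95% counting intervals, for members with at least 50 UMIs; the grey band spans ratios within 1.5-fold and the axis ends before the upper bounds of Dbp in dermal papilla or sheath-like cells. In epithelial cells Dbp lies farthest to the right, at 5.28 and 2.42 in the 2-week and 3-week knockouts, and Arntl lies left of 1 in all 6 panels.

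Dbp, a PAR bZIP transcription factor whose transcript follows BMAL1 activity closely, had the largest ratio to control of the 10 members in both lineages of both knockouts. In epithelial cells it was counted at 38.6 CPM (3310 UMIs) in the 2-week knockout and 17.7 CPM (1691 UMIs) in the 3-week knockout, against 7.31 CPM (353 UMIs) in the control. Both knockouts stood above the control there, by 5.28-fold (4.73 to 5.91) at 2 weeks and 2.42-fold (2.16 to 2.72) at 3 weeks. In dermal cells Dbp was 26.7 CPM (163 UMIs) and 68.8 CPM (788 UMIs) in the 2-week and 3-week knockouts, against 6.23 CPM (53 UMIs) in the control. The dermal order of the knockouts was thus the opposite of that in pooled epithelial cells, with dermal ratios to control of 4.29 (3.13 to 5.96) at 2 weeks and 11.0 (8.36 to 14.9) at 3 weeks. Single classes did not divide that way. Dbp was above the 2-week level at 3 weeks in 9 of 12 classes counted, among them interfollicular basal-like cells (16.2 against 10.3 CPM), and below it in bulge-like cells (102 against 118 CPM). Within 9 cell classes with enough UMIs the 2-week knockout was higher in all 9, by 2.36-fold to 42.8-fold, and the 3-week knockout was higher in all 12 classes counted, by 1.69-fold to 103-fold. The lowest of these, sebaceous gland-like cells at 3 weeks, had an interval that included 1 (0.936 to 3.18), and a log2 ratio of -0.74 with every cell weighed equally, which turns its direction. Some classes had few Dbp UMIs in the control, such as 6 in upper hair follicle-like and 1 in dermal papilla or sheath-like cells. They passed the count minimum only through the knockouts, so the counts of 9 and 12 classes are partly set by that minimum.

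The epithelial values of Dbp mix cell types in different proportions. Bulge-like cells, where Dbp was highest in every library, made up 2901 cells of the 2-week knockout and 865 of the 3-week knockout, against 518 of the control. There Dbp was 118 CPM (2255 UMIs) in the 2-week knockout and 102 CPM (507 UMIs) in the 3-week knockout, against 45.4 CPM (189 UMIs) in the control, or 2.60-fold (2.24 to 3.03) and 2.25-fold (1.90 to 2.67) higher. In the largest bulge-like cluster alone the levels were 127 and 113 CPM in the 2-week and 3-week knockouts against 50.2 CPM in the control. Interfollicular basal-like cells, the proliferative layer of the epidermis, had 10.3 CPM (176 UMIs) and 16.2 CPM (409 UMIs) in the 2-week and 3-week knockouts, against 3.15 CPM (35 UMIs) in the control. Their ratios were 3.26 (2.26 to 4.83) and 5.15 (3.64 to 7.49). This class held 2 clusters in different proportions, and within them Dbp was 8.20 and 14.9 CPM in the 2-week and 3-week knockouts against 2.96 CPM in the control, and 14.5 and 18.1 CPM against 4.23 CPM. When all epithelial clusters were weighed equally, the log2 ratio of Dbp to control was 1.76 rather than 2.40 at 2 weeks and 1.61 rather than 1.28 at 3 weeks.

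In the dermis, dermal papilla or sheath-like cells, which surround and instruct the follicle, had 18.7 CPM of Dbp (55 UMIs) in the 2-week knockout and 45.1 CPM (165 UMIs) in the 3-week knockout, against 0.438 CPM (1 UMI, 0.0111 to 2.44) in the control. The control thus had a single Dbp UMI in 415 such cells, and the ratios of 42.8 (7.36 to 1719) and 103 (18.3 to 4097) have intervals as wide as that count makes them. Fibroblast-like cells had 38.2 CPM (26 UMIs) and 99.6 CPM (513 UMIs) in the 2-week and 3-week knockouts, against 6.53 CPM (25 UMIs) in the control. The libraries did not overlap within counting error there, at 5.85-fold (3.25 to 10.6) and 15.3-fold (10.2 to 23.8), in a class of 110 and 811 knockout cells against 419 control cells. Free RNA from broken keratinocytes can add epithelial transcripts to dermal cells. Krt5 and Krt14, keratins of basal epithelium, reached 15.1% and 11.1% of their epithelial level in dermal cells of the 2-week and 3-week knockouts, against 7.20% in the control. Dbp in the same cells stood at 69.2% and 389% of its epithelial level in the knockouts against 85.2% in the control. In dermal papilla or sheath-like cells the keratin shares were 4.69%, 3.35% and 5.75% in the 2-week knockout, the 3-week knockout and the control, where Dbp stood at 48.5%, 255% and 5.99%.

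**Figure D2:**
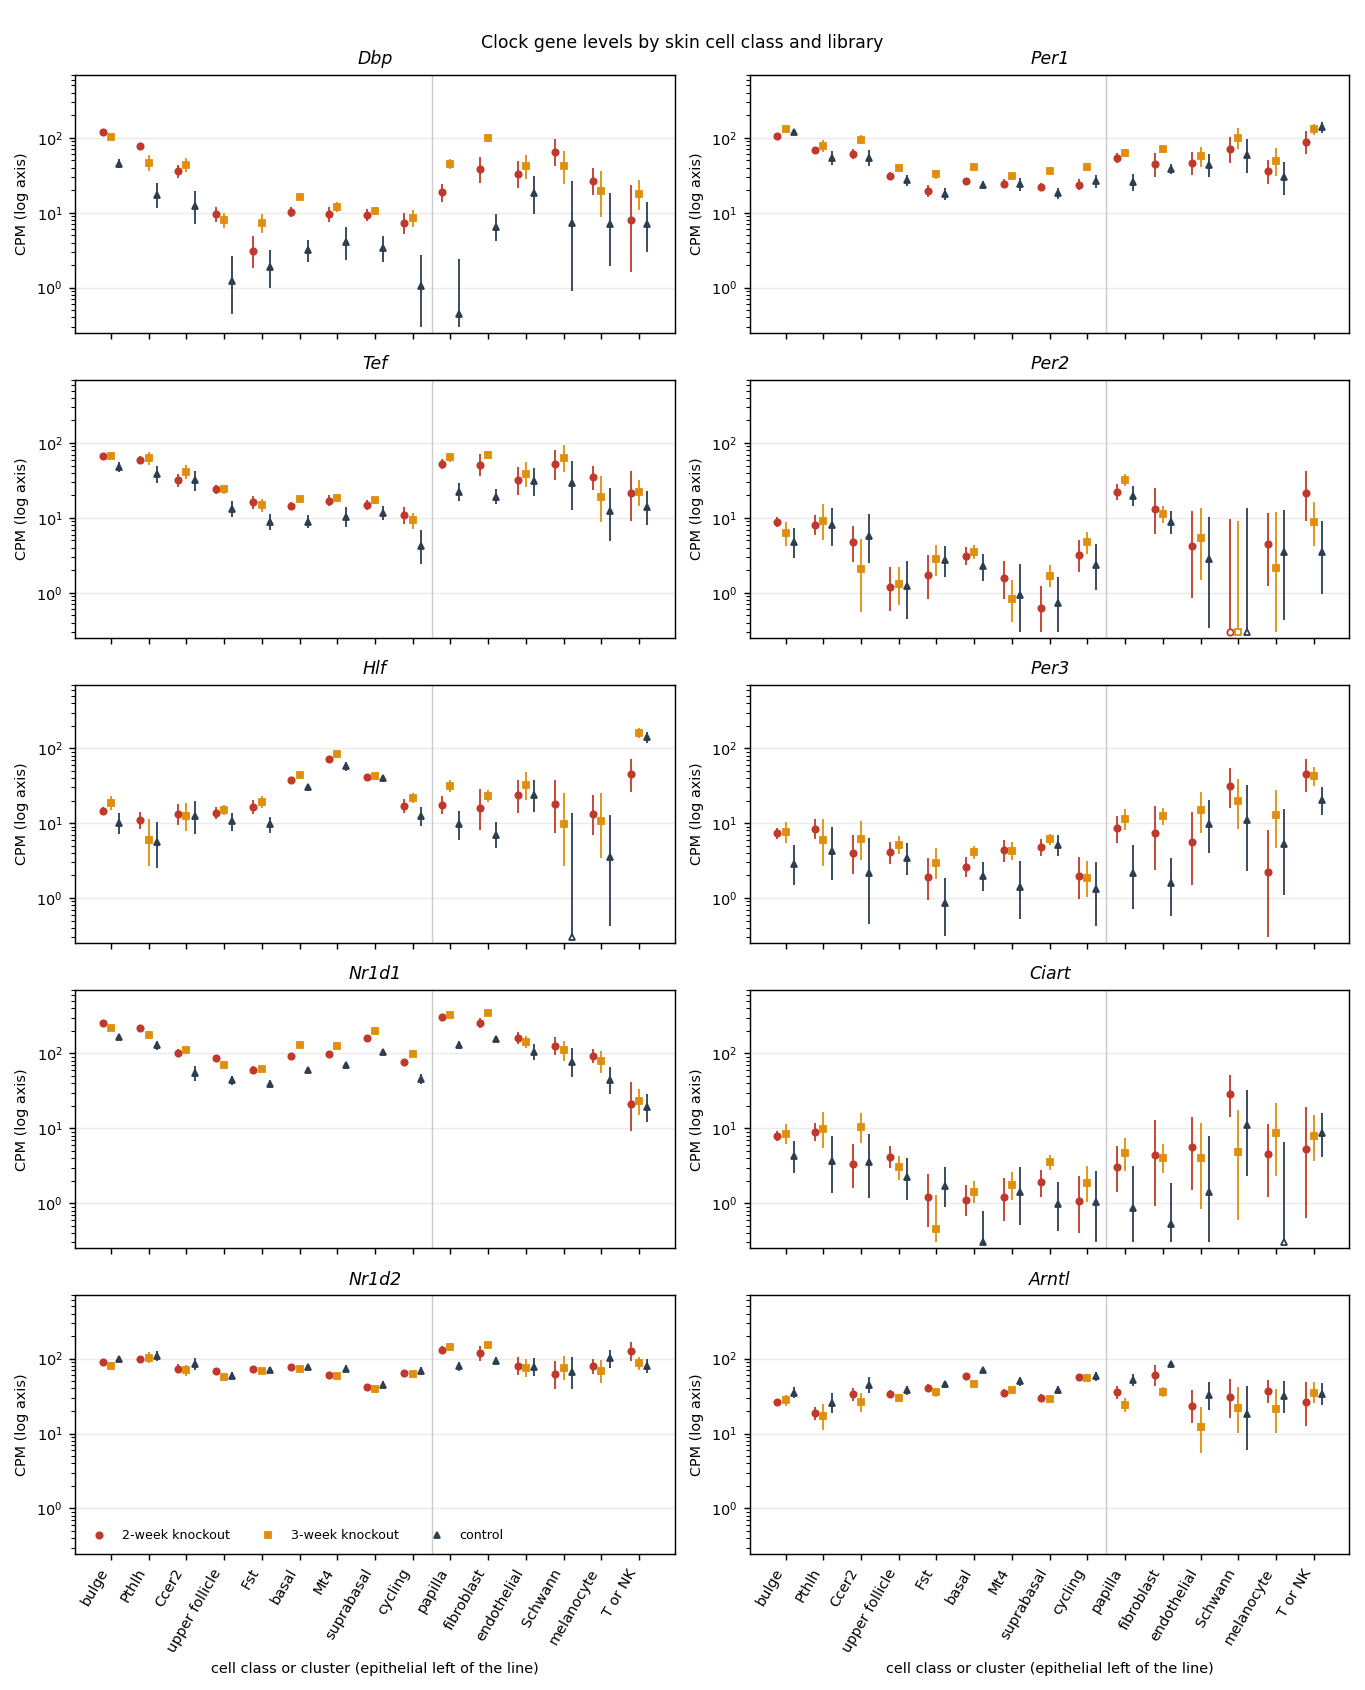
Level of each member in CPM (log axis) in the 15 classes and clusters with at least 50 cells in every library, with the 2-week knockout, the 3-week knockout and the control as separate points and exact Poisson 95% intervals; open points at the foot of a panel had 0 UMIs. Dbp points of both knockouts lie above the control in bulge-like, interfollicular basal-like and dermal papilla or sheath-like cells, and Arntl points of the control lie above the knockouts in fibroblast-like cells.

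Dbp was highest in bulge-like cells of every library, among 15 classes of the 2-week knockout, 18 of the 3-week knockout and 18 of the control. The epithelial cluster led by Pthlh and Serpinb11 was next in the 2-week knockout at 78.2 CPM, clear of the bulge-like level, whereas in the 3-week knockout fibroblast-like cells were next at 99.6 CPM with an interval that overlapped that of bulge-like cells. In the control the next class was blood endothelial-like, at 18.2 CPM from 13 UMIs. Lowest were the cluster led by Fst and Tm4sf1 in the 2-week knockout (3.09 CPM), Langerhans or dendritic-like cells in the 3-week knockout (3.17 CPM) and dermal papilla or sheath-like cells in the control. Most neighbours between these ends had overlapping intervals, 11 of 14 pairs in the 2-week knockout, 16 of 17 in the 3-week knockout and 16 of 17 in the control.

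Tef and Hlf encode the other PAR bZIP factors, which bind the same D-box letters as DBP. Tef was 31.1 CPM in epithelial cells of the 2-week knockout and 21.5 CPM in the 3-week knockout, against 15 CPM in the control. In dermal cells it was 45.4 and 62.9 CPM in the 2-week and 3-week knockouts against 20.9 CPM in the control. Its ratios were 2.07 (1.90 to 2.25) and 1.43 (1.31 to 1.56) in epithelial cells and 2.17 (1.79 to 2.63) and 3.01 (2.55 to 3.56) in dermal cells, so the 3-week epithelial value alone was short of 1.5-fold. With epithelial clusters weighed equally the 2-week log2 ratio of Tef was 0.56 rather than 1.05, which is also short of it. Tef was called higher in 8 of 11 classes at 2 weeks and 8 of 13 at 3 weeks, was above the control in all of them, and was most different in fibroblast-like cells (51.4 and 70.3 CPM in the 2-week and 3-week knockouts against 19.3 CPM). Its levels in bulge-like cells were 68.0 and 67.3 CPM against 48 CPM, or 1.42-fold (1.22 to 1.65) and 1.40-fold (1.17 to 1.68) higher.

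Hlf was 28.6 and 38.7 CPM in epithelial cells of the 2-week and 3-week knockouts against 23.6 CPM in the control, with ratios of 1.21 (1.13 to 1.3) and 1.64 (1.54 to 1.76). Dermal cells had 19.0 CPM and 26.7 CPM in the 2-week and 3-week knockouts against 9.41 CPM, or 2.02-fold (1.51 to 2.72) and 2.84-fold (2.22 to 3.68) higher. Hlf thus passed the threshold in the dermis of both knockouts and in the epithelium of the 3-week knockout, although with clusters weighed equally its log2 ratio was 0.54 rather than 1.02 in 2-week dermal cells and 0.41 rather than 0.72 in 3-week epithelial cells, both short of the threshold. Unlike Dbp, Hlf was not highest in bulge-like cells, which had 14.5 and 18.5 CPM in the 2-week and 3-week knockouts against 10.1 CPM in the control. It was highest in T or natural killer-like cells of the 3-week knockout (160 CPM) and the control (140 CPM) and in the keratinocyte cluster led by Mt4 and Krt1 in the 2-week knockout (72.8 CPM). T or natural killer-like cells of the 2-week knockout had 45.1 CPM from 17 UMIs, below the control at a ratio of 0.322. That class held 2 clusters, and the one led by Icos and Cd52 had 8 and 80 cells in the 2-week and 3-week knockouts against 103 in the control. In that cluster Hlf was 507 CPM in the 3-week knockout against 235 CPM in the control, and in the other, led by Ctla2a and Cd3g, no library had more than 6 Hlf UMIs.

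Nr1d1 and Nr1d2 encode REV-ERBα and REV-ERBβ, haem-binding nuclear receptors that repress Arntl. Nr1d1 was 144 CPM in epithelial cells of the 2-week knockout and 136 CPM in the 3-week knockout, against 75.8 CPM in the control. Dermal cells had 236 CPM and 289 CPM in the 2-week and 3-week knockouts, against 127 CPM in the control. Its knockout levels were close to each other in epithelium, with ratios to control of 1.90 (1.83 to 1.97) and 1.80 (1.73 to 1.86), and 1.86 (1.71 to 2.01) and 2.27 (2.12 to 2.44) in the dermis. Nr1d1 was called higher in 13 of 14 classes at 2 weeks and 12 of 17 at 3 weeks. The largest ratio, 7.89 (3.73 to 19.96), was that of Langerhans or dendritic-like cells at 3 weeks, with 77.1 CPM in that knockout against 9.77 CPM (7 UMIs) in the control. Sebaceous gland-like cells were the only class counted below the control, at 86.9 CPM in the 3-week knockout against 105 CPM, a ratio of 0.826 (0.682 to 1). In dermal papilla or sheath-like cells Nr1d1 was 305 and 323 CPM in the 2-week and 3-week knockouts against 131 CPM, and in bulge-like cells it was 255 and 218 CPM against 167 CPM. The 3-week bulge-like ratio, 1.31 (1.19 to 1.44), was short of the threshold.

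The ratios of Nr1d2 to control lay nearer to 1 than those of its paralogue. Epithelial cells had 72.0 and 60.3 CPM in the 2-week and 3-week knockouts against 70.2 CPM in the control, with ratios of 1.03 (0.984 to 1.07) and 0.860 (0.824 to 0.897). Dermal cells had 111 and 133 CPM in the 2-week and 3-week knockouts against 86.3 CPM, with ratios of 1.29 (1.16 to 1.43) and 1.54 (1.41 to 1.68). The 3-week dermal value was past 1.5-fold, but its log2 ratio of 0.62 was 0.50 with median-of-ratios scaling, 0.55 with doublets kept and 0.47 with clusters weighed equally, all below the threshold. Among classes it was called higher in 2 of 14 at 2 weeks and 3 of 17 at 3 weeks. Dermal papilla or sheath-like cells were among these in both knockouts, at 132 and 143 CPM in the 2-week and 3-week knockouts against 79.2 CPM in the control. The other class at 2 weeks was T or natural killer-like, at 127 CPM (48 UMIs) against 80.6 CPM (92 UMIs) in the control. That class held 2 clusters in different proportions. At 3 weeks the others were fibroblast-like cells (154 CPM against 94.5 CPM) and pericyte or smooth muscle-like cells (87.2 CPM against 57.9 CPM, with an interval that includes 1). Nr1d2 was called lower in sebaceous gland-like cells at 3 weeks, at 34.2 CPM in the knockout against 56.4 CPM in the control.

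The period genes encode repressors of BMAL1 and CLOCK, and Per1 and Per2 also respond rapidly to outside signals, glucocorticoids among them for Per1. Per1 was 47.4 and 43.4 CPM in epithelial cells of the 2-week and 3-week knockouts against 32.2 CPM in the control, with ratios of 1.47 (1.39 to 1.56) and 1.35 (1.27 to 1.43). Dermal cells had 53.1 CPM and 66.5 CPM of Per1 in the 2-week and 3-week knockouts against 36.9 CPM, or 1.44-fold (1.23 to 1.69) and 1.80-fold (1.58 to 2.06) higher. Only the 3-week dermal value was called among the lineages. Among classes Per1 was called higher in 1 of 13 and lower in 1 at 2 weeks, and higher in 8 of 17 and lower in 0 at 3 weeks, among them interfollicular basal-like cells with 40.7 CPM in the 3-week knockout against 23.2 CPM in the control. Bulge-like cells, with 107 and 130 CPM in the 2-week and 3-week knockouts against 118 CPM in the control, had ratios of 0.907 (0.822 to 1) and 1.10 (0.978 to 1.24). Dermal papilla or sheath-like cells had 54.1 and 63.2 CPM against 25.8 CPM, the largest Per1 ratios of any class (2.10 and 2.45).

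Per2 was sparse in epithelium, at 3.99 CPM (342 UMIs) and 2.78 CPM (266 UMIs) in the 2-week and 3-week knockouts against 2.48 CPM (120 UMIs) in the control. The 2-week ratio was 1.60 (1.3 to 1.99) and the 3-week ratio 1.12 (0.899 to 1.40), and the log2 ratio of the first was 0.29 rather than 0.68 with clusters weighed equally, short of the threshold. Dermal Per2 was 14.1 CPM and 16.9 CPM in the 2-week and 3-week knockouts against 10.2 CPM, with ratios of 1.38 (1.01 to 1.88) and 1.65 (1.27 to 2.15). It was highest in dermal papilla or sheath-like cells of every library, at 22.5 and 32.6 CPM in the 2-week and 3-week knockouts against 19.7 CPM in the control.

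Per3 was 4.63 CPM (397 UMIs) and 4.97 CPM (475 UMIs) in epithelial cells of the 2-week and 3-week knockouts, against 2.80 CPM (135 UMIs) in the control, or 1.66-fold (1.36 to 2.03) and 1.78-fold (1.47 to 2.17) higher. In dermal cells it was 8.19 CPM (50 UMIs) and 12.5 CPM (143 UMIs) against 3.64 CPM (31 UMIs), or 2.25-fold (1.41 to 3.64) and 3.43-fold (2.31 to 5.23) higher. Of the classes with enough UMIs, bulge-like cells had the largest ratio at 2 weeks (2.53) and fibroblast-like cells at 3 weeks (7.93). Fibroblast-like cells had 12.4 CPM (64 UMIs) in the 3-week knockout against 1.57 CPM (6 UMIs) in the control. T or natural killer-like cells had the highest Per3 level in each library, at 45.1 and 42.4 CPM in the 2-week and 3-week knockouts against 20.1 CPM, from 17, 48 and 23 UMIs.

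Ciart, also called CHRONO, encodes a repressor that binds BMAL1. It was 3.68 CPM (316 UMIs) and 2.97 CPM (284 UMIs) in epithelial cells of the 2-week and 3-week knockouts, against 1.70 CPM (82 UMIs) in the control. The ratios were 2.17 (1.70 to 2.80) and 1.75 (1.36 to 2.27). In dermal cells only 36 and 51 UMIs were counted in the 2-week and 3-week knockouts against 12 in the control. The 2-week dermal ratio of 4.18 (2.13 to 8.83) was under the count minimum, and the 3-week ratio was 3.16 (1.66 to 6.51). Ciart passed the count minimum in 2 classes in each comparison with the control and was higher in all of these, among them bulge-like cells with 7.96 and 8.47 CPM in the 2-week and 3-week knockouts against 4.32 CPM. The control had 18 Ciart UMIs in bulge-like cells, 6 in the cluster led by Pthlh and Serpinb11 and 8 in suprabasal-like cells. These classes thus passed the minimum mostly through the knockouts, and their direction was largely set by it.

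Arntl, the activator, was the only member below the control in both lineages of both knockouts. It was 37.5 CPM (3214 UMIs) and 36.9 CPM (3526 UMIs) in epithelial cells of the 2-week and 3-week knockouts, against 47.9 CPM (2311 UMIs) in the control. These ratios, 0.783 (0.742 to 0.826) and 0.771 (0.731 to 0.813), were short of the threshold. In dermal cells Arntl was 36.7 CPM (224 UMIs) and 28.2 CPM (323 UMIs) against 60.3 CPM (513 UMIs), with ratios of 0.609 (0.518 to 0.714) and 0.468 (0.406 to 0.539). The log2 ratio of the 2-week dermal value was -0.18 rather than -0.72 with clusters weighed equally, which ends its call. Fibroblast-like cells had 60.2 and 35.9 CPM in the 2-week and 3-week knockouts against 83.8 CPM in the control, and interfollicular basal-like cells 58.1 and 46.5 CPM against 71 CPM. Over classes the ratio of Arntl to control was above 1 in 1 of 12 at 2 weeks, with 0 called lower, and in 1 of 14 at 3 weeks, with 5 called lower. Clock, the gene of its partner, chosen for its role, was 51.0 and 43.5 CPM in epithelial cells of the 2-week and 3-week knockouts against 46.6 CPM in the control, and 77.0 and 78.5 CPM against 86.4 CPM in dermal cells.

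The same counts were made within 3 classes, of the bulge, the basal epidermis and the dermal papilla or sheath. In bulge-like cells 5 of 10 members were higher and 0 lower at 2 weeks over backgrounds of 8.41% and 5.28%, and 4 of 10 higher and 0 lower at 3 weeks over 11.9% and 10.0%. In interfollicular basal-like cells 3 of 9 were higher and 0 lower at 2 weeks over 8.90% and 4.13%, and 6 were higher and 1 lower at 3 weeks over 14.5% and 8.37%. In dermal papilla or sheath-like cells 6 of 8 members were higher and 0 lower at 2 weeks over 6.45% and 7.84%, and all 8 were past the threshold at 3 weeks, 7 higher and 1 lower, over 13.7% and 9.73%. Arntl was the lower member each time. The papilla medians were a log2 ratio of 0.97 at 2 weeks and 1.3 at 3 weeks, beside -0.06 and 0.04 over all genes counted there, against bulge-like medians of 0.57 and 0.44 beside 0.02 and 0.03.

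**Figure D3:**
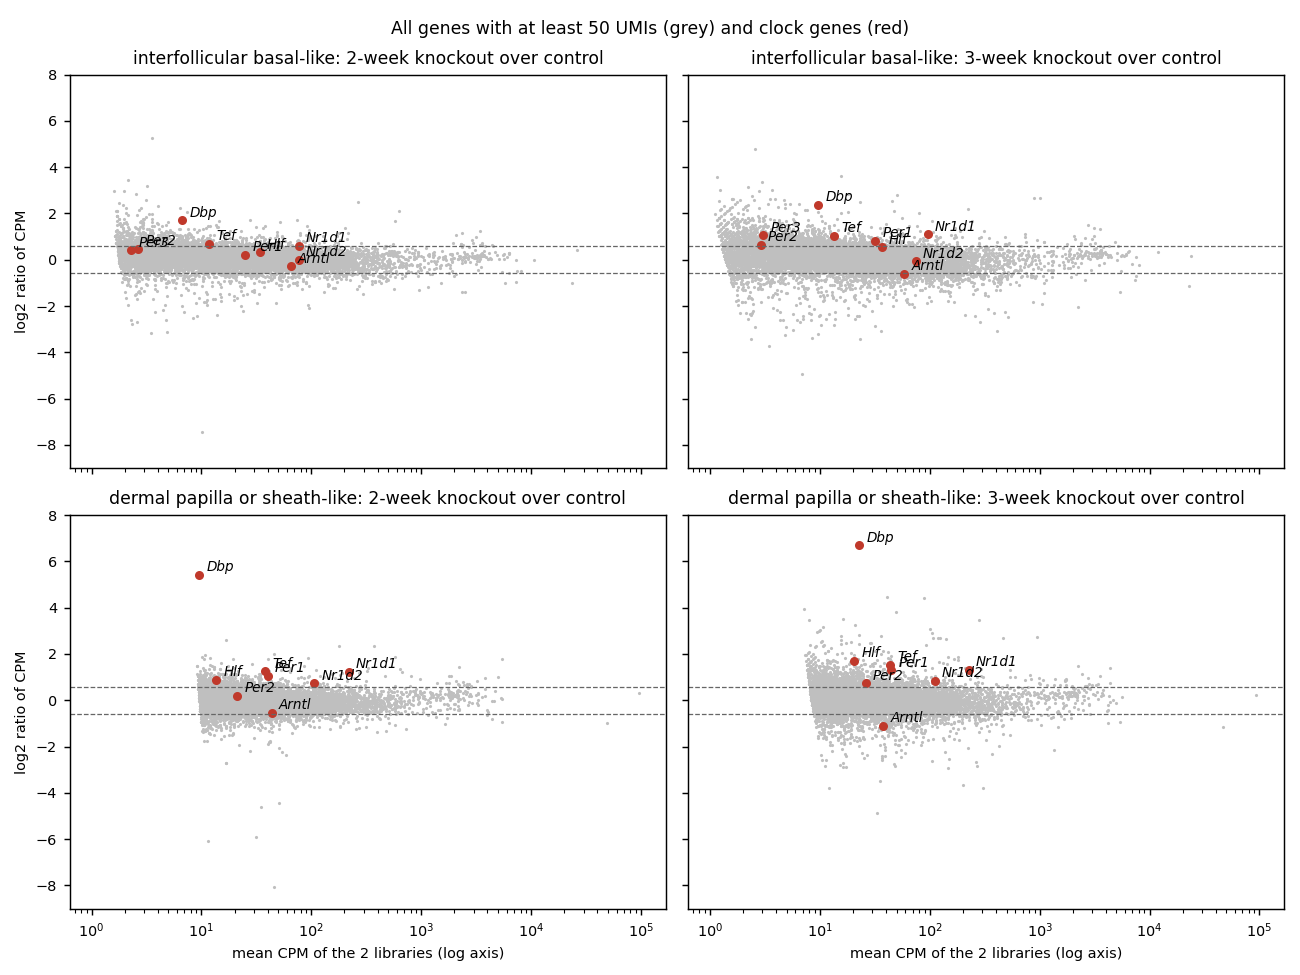
Log2 ratio to control against mean level (CPM, log axis) for all genes with at least 50 UMIs in interfollicular basal-like and in dermal papilla or sheath-like cells, with the clock members in red and dashed lines at 1.5-fold. Dbp sits highest among the members, at log2 ratios of 1.70 and 2.36 in basal-like and 5.42 and 6.69 in papilla or sheath-like cells of the 2-week and 3-week knockouts, while Arntl sits below 0.

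Few members differed between the knockouts, whose age and Td alleles also differ, and their shares were near those of all genes. In epithelial cells 0 of 10 members were higher and 1, Dbp, was lower in the 3-week than in the 2-week knockout, over 7.31% and 12.6% of all genes. The Dbp ratio was 0.458 (0.432 to 0.486), but with the clusters weighed equally its log2 ratio was -0.11 rather than -1.13, which ends the call. In dermal cells 2 of 10, Dbp and Per3, were higher and 0 lower, over 12.7% and 8.26%. Dbp differed by 2.58-fold (2.17 to 3.07) and Per3 by 1.52-fold (1.10 to 2.15), and with equal weights for the clusters the log2 ratio of Dbp was 0.55 rather than 1.37 and that of Per3 0.12 rather than 0.61, both short of the threshold, while that of Hlf was 0.91 rather than 0.49. The Per1 level was above that of the 2-week knockout in all 15 classes of the 3-week knockout and was called higher in 6, among them interfollicular basal-like cells at 40.7 CPM in the 3-week knockout against 26.9 CPM in the 2-week knockout.

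Of 31 other genes of the clock pathway, 5 of 30 with enough UMIs were higher and 0 lower in epithelial cells at 2 weeks, over the 12.0% and 6.94% of all genes. At 3 weeks 4 of 30 were higher and 1 lower, over 10.3% and 10.8%. In dermal cells 5 of 27 were higher and 1 lower at 2 weeks, over 11.5% and 9.74%, and 6 of 28 were higher and 0 lower at 3 weeks, over 13.7% and 6.58%. The shares called higher were thus near those of all genes. The medians of the list, log2 ratios of 0.04 and -0.03 in epithelial cells and 0.02 and 0.09 in dermal cells of the 2-week and 3-week knockouts, were near those of all genes.

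Among the other repressors, Bhlhe40, which encodes DEC1, a competitor of BMAL1 and CLOCK for E-boxes, was higher in both lineages of both knockouts. It was 344 and 367 CPM in epithelial cells of the 2-week and 3-week knockouts against 224 CPM in the control, and 615 and 448 CPM against 252 CPM in dermal cells. Its paralogue Bhlhe41 (DEC2) was higher in 2-week dermal cells, at 16.6 and 16.1 CPM in the 2-week and 3-week knockouts against 10.8 CPM. Cry2, a cryptochrome that acts with the period proteins, was 34.5 and 22.3 CPM in epithelial cells against 15.7 CPM, or 2.21-fold (2.04 to 2.39) and 1.42-fold (1.31 to 1.55) higher. In the loop that drives Arntl and the D-box genes, Nfil3, a repressor at D-boxes, was 101 and 61.1 CPM in epithelial cells of the 2-week and 3-week knockouts against 58.6 CPM in the control. Rorb, an activating receptor at ROR elements, was 60.6 and 35.3 CPM in dermal cells against 31.6 CPM, and Rora, which did not pass the threshold, was 292 and 326 CPM in epithelial cells against 298 CPM. These 2 loop genes were thus higher at 2 weeks and near the control at 3 weeks.

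Among the kinases and ubiquitin enzymes, Csnk1a1, a casein kinase, did not pass the threshold, at 637 and 561 CPM in epithelial cells of the 2-week and 3-week knockouts against 721 CPM in the control. Usp2, a deubiquitinase that is itself rhythmic, was lower in 3-week epithelium, at 108 and 83.6 CPM in the 2-week and 3-week knockouts against 134 CPM. Btrc, a ubiquitin ligase subunit that targets period proteins, was 15.4 and 19.7 CPM in dermal cells against 12.9 CPM, and was called higher at 3 weeks. Fbxl21, a ligase subunit for cryptochromes, was called higher in epithelium on 54 and 57 UMIs in the 2-week and 3-week knockouts against 18 in the control, with intervals that include 1.

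Of the clock output genes, Klf10, a zinc finger factor, was 143 and 94.9 CPM in epithelial cells of the 2-week and 3-week knockouts against 70.1 CPM in the control, and 134 and 105 CPM in dermal cells against 63.0 CPM. Wee1, a cell cycle kinase with E-boxes in its promoter, was 46.3 and 58.8 CPM in epithelium against 38.3 CPM, and 39.0 and 43.8 CPM in the dermis against 23.0 CPM. Tsc22d3, which glucocorticoids induce, was 28.2 and 35.7 CPM in epithelium against 20.7 CPM and 77.4 and 144 CPM in the dermis against 74.8 CPM. Tspan4 was higher in 3-week dermal cells, at 40.6 and 67.0 CPM in the 2-week and 3-week knockouts against 40.0 CPM, and Por, the electron donor of cytochrome P450 enzymes, was lower in 2-week dermal cells, at 55.4 and 97.6 CPM against 105 CPM. Klf9, a factor known to be rhythmic in human keratinocytes, did not pass the threshold, at 425 and 410 CPM in epithelium against 370 CPM.

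**Figure D4:**
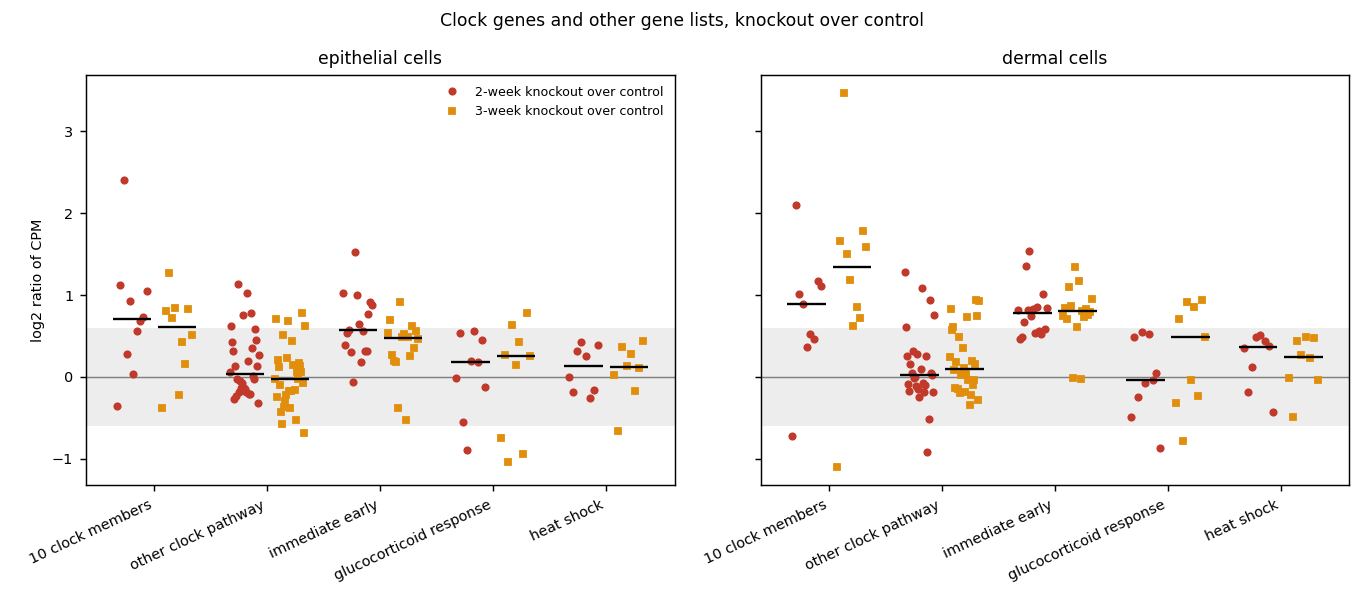
Log2 ratio to control of the 10 members, of the other clock pathway genes and of the immediate early, glucocorticoid and heat shock lists, for genes with at least 50 UMIs, in epithelial and dermal cells of the 2-week and 3-week knockouts, with the median of each list as a bar and ratios within 1.5-fold in grey. The medians of the members are 0.70 and 0.62 in epithelial and 0.89 and 1.35 in dermal cells, those of the other pathway genes lie near 0, and those of the immediate early genes are 0.57 and 0.47 in epithelial and 0.78 and 0.80 in dermal cells.

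Other gene lists were set beside the clock members, and their part in the result was not tested. Immediate early genes, which tissue dissociation is known to induce, summed to 31133 and 24945 CPM in epithelial cells of the 2-week and 3-week knockouts against 18278 CPM in the control, and to 35176 and 35985 CPM in dermal cells against 19725 CPM. Of these 16 genes 7 were higher at 2 weeks and 3 at 3 weeks in epithelium, where 12.0% and 10.3% of all genes were, and 11 and 14 were higher in the dermis, where 11.5% and 13.7% were, with 0 lower in each. Of 9 genes that glucocorticoids induce, Per1 among them, 0 were higher and 1 lower in each lineage at 2 weeks, where 6.94% of all epithelial and 9.74% of all dermal genes were lower. At 3 weeks 2 were higher and 3 lower in epithelium, over 10.3% and 10.8%, and 4 were higher and 1 lower in the dermis, over 13.7% and 6.58%. Of 8 heat shock genes, 0 were higher in any of these comparisons, where 10.3% to 13.7% of all genes were. Lower in 3-week epithelium was 1, Hsp90aa1, where 10.8% of all genes were. For a list of 8 these counts are near the shares of all genes.

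The genes whose level followed Dbp most closely across 15 classes and 3 libraries, as Pearson r of log2(CPM + 20) centred on each class over 45 points and 2910 genes, were Nr1d1 (0.86), Fau (0.86), Rps27 (0.86), Rpl35a (0.86) and Rplp2 (0.85). The last 4 are ribosomal protein genes. The summed share of ribosomal protein genes given above, which includes Rps27 and Rpl35a but not Fau and Rplp2, was also larger in both knockout libraries. Among members below the level needed for that ranking or below its top, r was 0.88 for Tef, 0.70 for Per3, 0.68 for Hlf, 0.66 for Per1, 0.57 for Ciart, 0.28 for Per2, 0.22 for Nr1d2 and -0.63 for Arntl. The points share 3 libraries, so no p is given.

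Dbp lies on chromosome 7 at 45705088-45710203, plus strand, and Arntl on the same chromosome and strand at 113207465-113314126 (GENCODE M21, GRCm38). Nr1d1, Per1 and Hlf lie on chromosome 11, Tef on 15, Nr1d2 on 14, Per2 on 1, Per3 on 4 and Ciart on 3. Several members overlap another gene at the end where reads are counted, and whether counting used strand is not given in the sources used here. Dbp overlaps Sphk2 on the opposite strand by 737 bases. Sphk2 was 16.8 and 24.8 CPM in epithelial cells of the 2-week and 3-week knockouts against 17.0 CPM in the control, and 5.74 and 9 CPM against 5.41 CPM in dermal cells. Nr1d1 overlaps Thra on the opposite strand by 1075 bases, and Thra was 74.2 and 52.5 CPM in epithelium against 49.1 CPM and 125 and 119 CPM in the dermis against 114 CPM. Per3 lies within Camta1 on the same strand, and Ciart opposite C920021L13Rik, so reads of these 4 members may be split with a neighbour and their levels are uncertain to that extent. Camta1 was 90.5 and 81.2 CPM in epithelial cells of the 2-week and 3-week knockouts against 70.9 CPM in the control.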

How the data were processed

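UMI counts per gene and cell were deposited for 3 libraries of dissociated back skin; the authors made them with Cell Ranger 6.1.2, per the file headers, on mm10, per the submitters' processing notes. No annotation release, intron or strand setting is given in the sources used here. The counts were used as deposited. Cells with under 500 genes (960 in the 2-week knockout, 754 in the 3-week knockout, 363 in the control) or 15% or more mitochondrial UMIs were left out, as were Scrublet doublets (2.88%, 3.94% and 2.19%). The remaining cells, with 92696668, 110833888 and 59895993 UMIs in the same order, were clustered together with scanpy 1.11.5 (2000 variable genes, 30 components, 15 neighbours, Leiden resolution 1), giving 32 clusters. A cluster was named where its marker score led the next by 0.25 with 3 or more markers; others are called by leading genes. The members, gene lists and markers were chosen with earlier results of these data known.

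UMIs of a gene were summed over the cells of a class and library and divided by all UMIs of that class and library, as CPM. Intervals were computed with scipy 1.17.1. All 10 members were named, as were the other clock pathway genes past 1.5-fold in the epithelial or dermal lineage and the 3 with most UMIs that were not. The calculations were tested on simulated data. With 1 library per group nothing measures the spread between mice. Alternatives covered scaling, cell filter, doublets, clustering, weighting of cells and clusters, thresholds and added CPM. Gene positions came from GENCODE M21 (GRCm38), whose build matches mm10, and promoter windows from RefSeq.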

Additional observations from a re-analysis of the deposited data

Results flagged for a closer look

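Members went opposite ways in different classes under the same comparison in 5 cases; the differences between classes were not tested. Hlf in T or natural killer-like cells was lower in the 2-week knockout than in the control, at a log2 ratio of -1.64, while it was higher in 3 classes. Per1 in the same cells and comparison had a log2 ratio of -0.65 while it was higher in 1 class, dermal papilla or sheath-like cells. Both values mix 2 clusters in different proportions. The one led by Icos and Cd52 had 8 cells in the 2-week knockout against 103 in the control. Nr1d2 had a log2 ratio of -0.72 in sebaceous gland-like cells of the 3-week knockout against the control while it was higher in 3 classes. In the epithelial cluster led by Pthlh and Serpinb11, the 3-week knockout was below the 2-week knockout at log2 ratios of -0.74 for Dbp and -0.90 for Hlf, while Dbp was higher in 4 classes and Hlf in 2; the Hlf value rests on 9 UMIs in the 3-week knockout against 60 in the 2-week knockout, and the interval of its ratio (0.234 to 1.09) includes 1.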

How the results depend on the processing

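Of the members' ratios recomputed under 11 alternatives, 3003 values stayed within the counting interval and in direction, 136 moved outside it and 5 changed sign; equal weights for clusters gave 53 of those that moved. The sign changes were Hlf in T or natural killer-like cells with clusters weighed equally (log2 ratio 3.13 at 2 weeks against control, and -3.88 at 3 against 2 weeks), which leaves the cluster led by Ctla2a and Cd3g alone, Tef in upper hair follicle-like cells at 2 weeks (-0.030) and Per1 in fibroblast-like cells at 3 against 2 weeks (-3.05e-05) with each library clustered alone, and Dbp in sebaceous gland-like cells at 3 weeks with every cell weighed equally (-0.74). The cause of the last 3 was not tested.

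The shares of all genes called under the other settings are not given here. The counts that follow are therefore not set against a background, and show only how the members' own calls depend on the setting. The count of higher members in 2-week epithelial cells (6) was 3 with 5 CPM added and 3 at 2-fold. In 3-week epithelial cells (5) it was 3 with 5 CPM added and 1 at 2-fold. In 3-week dermal cells (9) it was 6 at 2-fold, 7 with doublets kept, clusters weighed equally or 5 CPM added, and 8 with median-of-ratios scaling. In 2-week dermal cells 3 rather than 5 were higher with clusters weighed equally, and 0 rather than 1 lower with that weighting and at 2-fold. Between knockouts, lower epithelial members (1) were 3 with every cell weighed equally and 0 with clusters weighed equally. Higher dermal members (2) were 1 under both other scalings, the stricter filter, doublets kept, Leiden resolution 0.5, libraries clustered alone, both weightings, 5 CPM added and 2-fold, and lower ones (0) were 1 with every cell weighed equally and 2 with clusters weighed equally. Median-of-ratios scaling moved the median of all genes by -0.13 in dermal, -0.22 in fibroblast-like and 0.13 in melanocyte-like cells at 3 weeks, and by 0.14 in melanocyte-like cells at 2 weeks.

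Without the cell with most UMIs, Dbp in dermal papilla or sheath-like cells has no ratio to control, which is left with 0 UMIs. Clusters named by leading genes have no counterpart in other clusterings. No paired analysis was possible because each group had 1 library, and leaving out a replicate was not possible for the same reason. Depth limits Per2, Per3 and Ciart to few classes.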
